A study of Mus musculus with 42 samples.

Results

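The Fos and Jun family genes measured here are Fos, Fosb and Fosl2, which code for Fos proteins, and Jun, Junb and Jund, which code for Jun proteins. They were chosen by name, as the genes whose symbols are annotated to probe sets of the deposited expression table, and are 6 of the 18193 genes tested. The platform annotation pairs 9 probe sets with them: 1 each for Fos, Fosb and Junb, and 2 each for Fosl2, Jun and Jund. Where a gene had 2, the probe set with the higher mean over all arrays stands for it, and the other is given beside it where they disagree.

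RNA came from frozen, microdissected striatum or hippocampus of C57BL6 mice and was measured on Affymetrix arrays. Animals labelled wild type (WT) or PDE10A knockout (KO) had received either vehicle or a PDE10A inhibitor. PDE10A, a phosphodiesterase of striatal projection neurons, hydrolyses cAMP and cGMP. The comparisons ask what the inhibitor and the knockout label change in each region, against WT vehicle and against each other. Of the striatal arrays, 5 were from WT given vehicle, 6 from WT given inhibitor, 5 from KO given vehicle and 4 from KO given inhibitor. Of the hippocampal arrays, 6 and 6 were from WT and 5 and 5 from KO, in the same order of treatments. The age and sex of the mice, the deleted part of the gene, the compound, its dose and the time from dosing to dissection were not in the sources used here. The labels do not tie arrays to separate animals, so every p-value reflects the spread among these arrays, part of which may be technical.

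Fos and Jun proteins pair through leucine zippers to form the transcription factor AP-1, which binds a short palindromic site in promoters and enhancers. Fos proteins need a Jun partner, whereas Jun proteins can also pair with each other. Fos, Fosb and Junb are immediate early genes: in neurons their transcripts climb within minutes of synaptic activity, calcium entry or a surge of cAMP, partly through the factors CREB and SRF, and decay again soon after. Jund and Fosl2 are less transient, and in striatum a stable splice form of the Fosb protein builds up with repeated dopaminergic stimulation.

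The promoter sequences of Fos, Junb and Jun are shown because Fos and Junb varied together between striatal arrays, while Jun showed a large difference between regions. The relation of Fos and Junb passed with all arrays kept, and not without the arrays of doubtful genotype score described below. Each is the 250 bases before the annotated start in RefSeq (assembly GRCm38.p6), written 5′ to 3′ on the strand of the gene. Capitals mark matches to the CREB core TGACG, to TATAAA, to CCAAT or to TGACATCA, a variant bound by ATF and Jun proteins. Fos lies at chr12:85473890-85477274 on the plus strand, and its promoter window is chr12:85473640-85473889. Junb lies at chr8:84976909-84978748 on the minus strand, with the window chr8:84978749-84978998, and Jun at chr4:95049036-95052222 on the minus strand, with the window chr4:95052223-95052472.
Fos: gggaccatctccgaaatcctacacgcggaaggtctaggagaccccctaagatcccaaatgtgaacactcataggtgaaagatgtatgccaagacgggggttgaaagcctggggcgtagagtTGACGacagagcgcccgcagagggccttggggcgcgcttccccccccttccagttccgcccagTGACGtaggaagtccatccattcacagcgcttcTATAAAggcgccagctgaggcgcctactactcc
Junb: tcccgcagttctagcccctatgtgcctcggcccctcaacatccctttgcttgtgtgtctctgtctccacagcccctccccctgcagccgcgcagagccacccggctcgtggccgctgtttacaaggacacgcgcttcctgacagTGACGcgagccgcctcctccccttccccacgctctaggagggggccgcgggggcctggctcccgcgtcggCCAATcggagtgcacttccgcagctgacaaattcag
Jun: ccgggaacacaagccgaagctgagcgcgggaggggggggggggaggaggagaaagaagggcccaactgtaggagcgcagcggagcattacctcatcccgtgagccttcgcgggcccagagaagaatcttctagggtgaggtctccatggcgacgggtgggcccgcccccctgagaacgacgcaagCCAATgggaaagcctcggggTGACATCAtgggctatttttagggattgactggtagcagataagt

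Both strands were searched for the full cAMP response element TGACGTCA, its core TGACG, the AP-1 site TGANTCA, TGACATCA, the SRF site (CArG box), TATAAA and CCAAT. The core lies within the full element, so a match to the latter would also count for the former. The Fos window held TGACG at 129 to 125 and again at 66 to 62 bases before the start, and TATAAA at 33 to 28. The Junb window held TGACG at 106 to 102 and CCAAT at 36 to 32. In the Jun window CCAAT stood at 65 to 61 and TGACATCA at 45 to 38 bases before the start. The windows of Fosl2 and Jund held none of these letters, and that of Fosb, which overlaps the annotated gene, is not described. Among 32851 RefSeq promoters of that length, 17.8% held TGACG, 1.55% the full element, 6.75% TGANTCA, 2.93% TGACATCA, 1.47% a CArG box, 12.4% TATAAA and 33.8% CCAAT. These matches describe the sequence and are not evidence of binding.

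By most of the markers, the dissections differed as their labels say. Striatal projection neuron markers were higher in striatum for 8 of 8 genes measured, with a mean log2 level of 11.38 to 12.37 on striatal and 7.87 to 8.30 on hippocampal arrays. Glutamatergic neuron markers had a mean level of 8.90 to 9.16 on hippocampal arrays and spread from 5.95 to 8.42 on striatal arrays, and 7 of 9 were lower in WT vehicle striatum, as were 6 of 9 hippocampal markers (1 was higher). Hippocampal markers had a mean level of 7.47 to 9.45 on hippocampal and 6.72 to 7.54 on striatal arrays, so the ranges overlapped. The lowest hippocampal array, at 7.47, was in WT inhibitor, where the group median was 9.26. The part of cell makeup in the regional differences below was not tested. Of the arrays, 8 carried a score of chromosome 17 genes, the chromosome of Pde10a, on the side of the other genotype label: striatal KO vehicle 25 and WT inhibitor 13, 14 and 15, and hippocampal KO vehicle 25 and 26 and WT inhibitor 12 and 14. On this score the WT vehicle median of a region is 0, the KO inhibitor median 1 and the limit 0.5. Striatal WT inhibitor 13 and 15 lay close to that limit, at 0.58 and 0.59. Striatal WT inhibitor 14 was at 0.86 and KO vehicle 25 at 0.07. In hippocampus KO vehicle 25 and 26 were at -0.002 and 0.11, and WT inhibitor 12 and 14 at 1.04 and 0.79. The chromosome 17 score was built after values were seen, and results that change without these 8 arrays are given both ways. In striatum another feature overlaps with it. KO vehicle 25 and WT inhibitor 10, 11 and 12 had vascular marker means of 8.03 to 8.13, against 7.27 to 7.62 on the other 16 striatal arrays, so the WT inhibitor arrays that remain after removal of 13, 14 and 15 are all of high vascular signal. In bulk tissue, fewer cells of a type and less RNA per cell cannot be told apart.

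**Figure D1:**
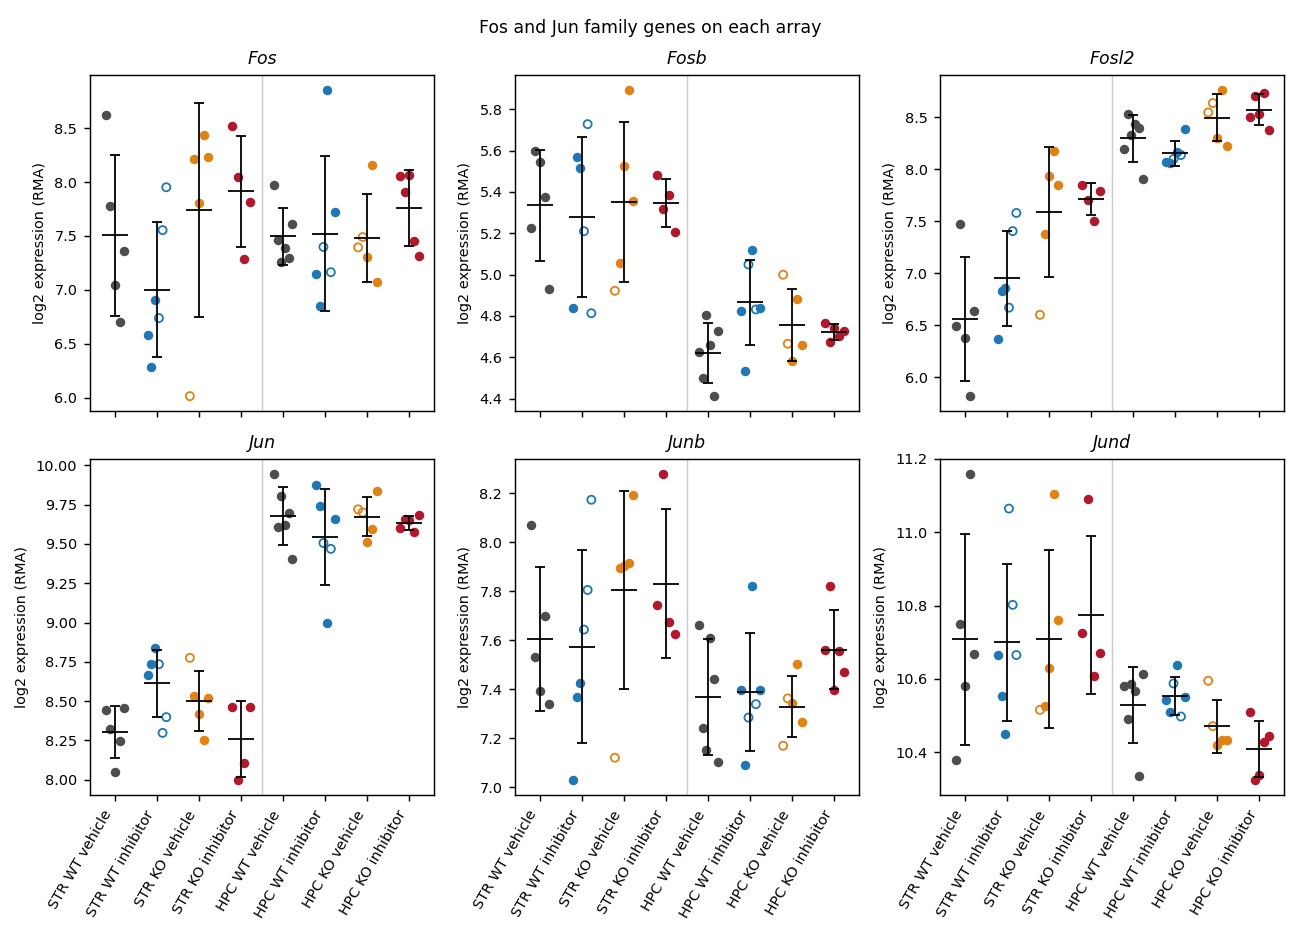
Log2 expression (RMA, vertical axis) of the 6 genes on every array, by group (horizontal axis; STR, striatum; HPC, hippocampus). Points are arrays, open points the 8 arrays of doubtful chromosome 17 score, and bars the group mean ± SD. By group mean, Jun and Fosl2 (brighter probe set) sit lower and Fosb higher in striatum than in hippocampus in every genotype and treatment.

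The plainest pattern in the family was regional. Striatum had less Jun, less Fosl2 at its brighter probe set and more Fosb transcript signal than hippocampus in all 4 combinations of genotype and treatment. The dimmer Fosl2 probe set did not show that gap. Fos did not differ past the threshold in any of the 4. A gene is called changed where its limma p, adjusted by the Benjamini-Hochberg method over 18193 genes, is under 0.05. In WT vehicle 3 of the 6 genes were called, in WT inhibitor 3, in KO vehicle 4 and in KO inhibitor 4. The regions differ broadly, and over all genes 33.9%, 35.6%, 27.3% and 26.1% were called in the same order.

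Fos, the prototype of the Fos proteins, had overlapping values in the regions. In WT vehicle striatum the 5 arrays read 8.63, 7.78, 7.05, 6.70 and 7.37 on the log2 scale. The 6 WT vehicle arrays of hippocampus ran from 7.26 through a median of 7.43 to 7.97. Striatal values thus lay both above and below the whole hippocampal range. The difference was 0.01 ± 0.35 (SE, limma, adjusted p = 0.991). Under WT inhibitor, KO vehicle and KO inhibitor it was -0.52 ± 0.34, 0.26 ± 0.37 and 0.16 ± 0.39, none past the threshold. Without the 8 arrays of doubtful score the WT inhibitor difference was -1.05 ± 0.38 (limma, adjusted p = 0.0341), with 29.1% of all genes called, and then every striatal WT inhibitor array is of high vascular signal.

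Fosb was dim, with a mean over all arrays of 5.02 at the 29.2 percentile of probe sets, and the table holds no detection calls. Its single probe set does not separate the splice forms. WT vehicle arrays of striatum read 5.23, 5.60, 5.55, 5.37 and 4.93, and those of hippocampus lay between 4.41 and 4.80 with a median of 4.64. The groups did not overlap. The striatal signal was 1.64-fold higher (log2 0.71 ± 0.15, limma, adjusted p = 1.44e-04). It was also higher by 0.59 ± 0.15 in KO vehicle (adjusted p = 0.00238) and by 0.62 ± 0.16 in KO inhibitor (adjusted p = 0.00281) in the same limma fit. In WT inhibitor the limma difference of 0.41 ± 0.14 (adjusted p = 0.0164) was the smallest of the 4, and the striatal arrays (4.81 to 5.73) overlapped with the hippocampal ones (4.53 to 5.12). That call was lost with only the groups compared in the fit (limma, adjusted p = 0.0571) and without hippocampal WT inhibitor 11 (adjusted p = 0.0572), striatal WT inhibitor 11 (adjusted p = 0.0521) or striatal WT inhibitor 14 (adjusted p = 0.0676).

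Fosl2 codes for Fra-2, a Fos protein without the strong activation domain of Fos. The 5 striatal WT vehicle arrays read 6.50, 7.47, 6.37, 5.82 and 6.64. The 6 hippocampal ones lay between 7.90 and 8.53, with a median of 8.36. Every striatal array was below every hippocampal array. The striatal level was 3.34-fold lower (log2 -1.74 ± 0.21, limma, adjusted p = 2.13e-08). The gap was -1.20 ± 0.20 in WT inhibitor (adjusted p = 7.41e-06), -0.91 ± 0.22 in KO vehicle (adjusted p = 0.00167) and -0.86 ± 0.24 in KO inhibitor (adjusted p = 0.00536) in the same limma fit. Without the doubtful arrays the KO vehicle gap was -0.60 ± 0.23 (limma, adjusted p = 0.0620), with 20.1% of all genes called. The dimmer Fosl2 probe set did not show the regional gap: it differed by 0.16 ± 0.09 in WT vehicle (limma, adjusted p = 0.188 over all probe sets), with the opposite sign, and by -0.08 to 0.21 in the 4 combinations. All Fosl2 statements therefore hold for the brighter probe set.

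Jun, the partner of Fos in the original AP-1 dimer and a target of Jun N-terminal kinases, showed the most uniform difference. In WT vehicle the striatal arrays read 8.44, 8.32, 8.05, 8.25 and 8.46, and the hippocampal ones lay between 9.41 and 9.95 with a median of 9.66. The highest of all 20 striatal arrays, WT inhibitor 12 at 8.84, was below the lowest of the 22 hippocampal arrays, WT inhibitor 13 at 9.0. The striatal level was 2.60-fold lower in WT vehicle (log2 -1.38 ± 0.12, limma, adjusted p = 3.24e-12). It was lower by -0.93 ± 0.11 in WT inhibitor, -1.18 ± 0.12 in KO vehicle and -1.38 ± 0.13 in KO inhibitor (limma, adjusted p = 8.85e-09, 5.33e-10 and 6.65e-11). The other Jun probe set gave -1.53, -1.08, -1.41 and -1.44 in the same order.

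Junb, an early-response Jun protein that can restrain Jun activity, and Jund, the constitutively abundant Jun protein, differed little between regions. Junb in WT vehicle read 8.07, 7.53, 7.39, 7.70 and 7.34 in striatum and 7.10 to 7.66 in hippocampus, and the groups overlapped (0.24 ± 0.17, limma, adjusted p = 0.276). It was called only in KO vehicle, at 0.48 ± 0.17 (limma, adjusted p = 0.0358), where striatal array 25 at 7.12 lay below the 4 others (7.90 to 8.19) and below the 5 hippocampal KO vehicle arrays (7.17 to 7.50). This call was lost in the limma fits without hippocampal KO vehicle 25, 26, 28 or 30 or striatal KO vehicle 26, 28, 29 or 30, with adjusted p between 0.0506 and 0.127. Jund differed by 0.15 to 0.24 in WT vehicle, WT inhibitor and KO vehicle, not past the threshold. It was called only in KO inhibitor, where the striatal arrays read 10.73, 11.09, 10.61 and 10.67 and the hippocampal ones 10.51, 10.32, 10.34, 10.43 and 10.45. That difference of 0.36 ± 0.11 (limma, adjusted p = 0.0150) was 0.26 ± 0.12 (adjusted p = 0.132) without striatal KO inhibitor 35. The dim second Jund probe set, with a mean of 4.12, was higher by 0.23 ± 0.09 in WT vehicle (limma, adjusted p = 0.0477 over all probe sets) and differed by 0.17 or less in the other combinations. That a gene was called in some combinations and not in others was not tested as a difference, except where a regional contrast of the treatment or genotype effect is given below.

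**Figure D2:**
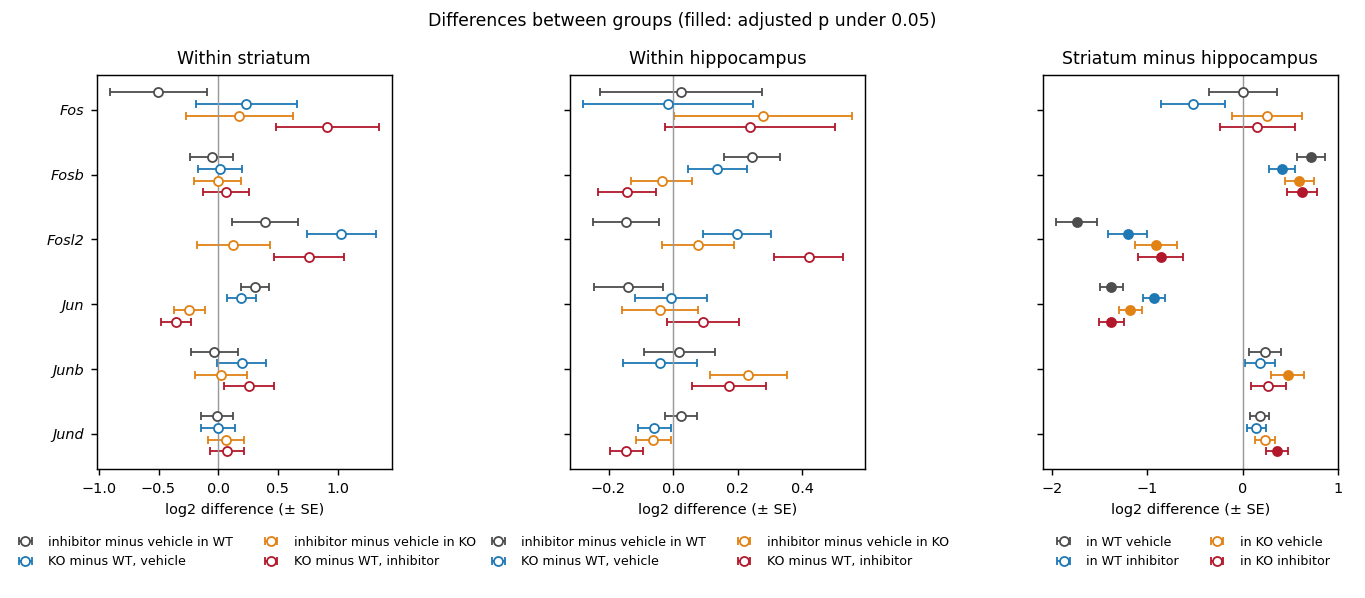
Log2 differences (horizontal axis, ± SE from limma) of the 6 genes (vertical axis) within striatum, within hippocampus and between regions, with a separate horizontal scale in each panel. Filled points have an adjusted p under 0.05 over 18193 genes. All points within a region are open, while Jun, Fosl2 (brighter probe set) and Fosb are filled in all 4 regional comparisons.

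The inhibitor moved none of the 6 genes past the threshold in either region or genotype. In WT striatum 0 of 6 were called, against 0.181% of all genes. Before adjustment 1741 of all 18193 genes had a limma p under 0.05, and 1 of the 6 did. That gene was Jun. WT vehicle arrays ran from 8.05 to 8.46, and the WT inhibitor arrays, numbers 10 to 15, read 8.67, 8.74, 8.84, 8.73, 8.30 and 8.40. Arrays 10 to 13 lay above every vehicle array, and 14 and 15 lay among them. The difference was 0.31 ± 0.12 (limma, adjusted p = 0.367), and the other Jun probe set gave 0.43 ± 0.13 (adjusted p = 0.283 over all probe sets). Without the doubtful arrays 13, 14 and 15 it was 0.44 ± 0.12 (limma, adjusted p = 0.0457), with 4.23% of all genes called. The 3 arrays kept, 10, 11 and 12, are those of high vascular signal. Their glutamatergic marker means were 5.95 to 6.15, against 6.03 to 7.90 on WT vehicle arrays. The left-out arrays 14 and 15 were nearly as low, at 6.21 and 6.22, and array 13 was at 7.08. The part of vascular or glutamatergic signal in the Jun difference was not tested.

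Fos in WT striatum went the other way in level, without passing. The WT inhibitor arrays read 6.58, 6.28, 6.91, 6.74, 7.55 and 7.95, against 6.70 to 8.63 with vehicle. Arrays 10 and 11 were below every vehicle array, and the rest overlapped with them. The difference was -0.50 ± 0.40 (limma, adjusted p = 0.796). Fosl2 differed by 0.39 ± 0.28, while Fosb, Junb and Jund lay within 0.06 of no difference. The dimmer Fosl2 probe set gave -0.08 ± 0.10.

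In KO striatum the inhibitor left 0 of 6 genes past the threshold, as it did for all genes (0% called). In limma 0 of the 6 had an unadjusted p under 0.05, against 257 of all 18193 genes. Jun arrays read 8.46, 8.0, 8.11 and 8.47 with inhibitor and 8.78, 8.53, 8.42, 8.25 and 8.52 with vehicle, and the groups overlapped (-0.24 ± 0.13, limma, adjusted p = 1.00). The inhibitor difference of Jun in WT less that in KO was 0.55 ± 0.17 (limma, unadjusted p = 0.00489, adjusted p = 0.514). It was 0.55 ± 0.19 at the other Jun probe set. In that interaction 0 members and 0% of all genes were called. Jun was the 1 member with an unadjusted p under 0.05, against 1346 of all 18193 genes. Of the other 5 genes Fos had the largest inhibitor difference in KO striatum, 0.17 ± 0.45.

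In hippocampus the inhibitor called 0 of 6 genes in WT and 0 of 6 in KO, with 0% of all genes called in both. At an unadjusted limma p under 0.05 were 1 and 0 members, and 1948 and 695 of all 18193 genes. Fosb in WT read 4.82, 4.53, 5.05, 5.12, 4.83 and 4.84 with inhibitor and 4.41 to 4.80 with vehicle. All but array 11 lay above the highest vehicle array. The difference was 0.24 ± 0.09 (limma, adjusted p = 0.369), on a dim probe set. Junb in KO hippocampus ran from 7.40 to 7.82 with inhibitor and from 7.17 to 7.50 with vehicle, a difference of 0.23 ± 0.12 (limma, adjusted p = 0.993). Fos in WT hippocampus was 0.02 ± 0.25 apart, with array 13 at 8.86 far above the other inhibitor arrays (6.85 to 7.72). The same array had the lowest Jun level in hippocampus, 9.0. Set between the regions, the inhibitor effect in WT differed for Jun by 0.45 ± 0.16 (limma, adjusted p = 0.239) and for Fosl2 by 0.54 ± 0.30 (adjusted p = 0.465). The dimmer Fosl2 probe set had the opposite sign there, at -0.25 ± 0.13. In this contrast 0 members were called, against 0.214% of all genes.

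The knockout label was accompanied by higher striatal Fosl2 values that did not pass over all genes. In vehicle-treated striatum 0 of 6 genes were called, against 0.137% of all genes. Fosl2 read 6.60, 7.38, 7.94, 8.18 and 7.85 on the KO vehicle arrays 25, 26, 28, 29 and 30, and 5.82 to 7.47 on the WT vehicle arrays. Arrays 28, 29 and 30 lay above all WT vehicle arrays, and array 25 lay in their middle. The difference was 1.03 ± 0.29, or 2.04-fold (limma, unadjusted p = 0.00189, adjusted p = 0.258, rank 133 of all genes by p). Without KO vehicle 25 it was 1.28 ± 0.26 (limma, adjusted p = 0.0302; 0.451% of all genes called), and without all doubtful arrays 1.28 ± 0.24 (adjusted p = 0.0158), with 0.797% of all genes called. Without the array of highest Gapdh 3′ minus 5′ difference in each striatal group, a measure of RNA shortening, it was 0.70 ± 0.30 (limma, adjusted p = 0.746; 0% of all genes called). The dimmer Fosl2 probe set differed by 0.06 ± 0.11.

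With vehicle the KO minus WT values of Fos and Jun in striatum were 0.24 ± 0.42 and 0.19 ± 0.12, not past the threshold. Under inhibitor Fosl2 and Fos again had positive values and Jun a negative one. Again 0 of 6 genes were called, as were 0% of all genes. An unadjusted limma p under 0.05 was found for 3 members and for 2216 of all 18193 genes. Fosl2 read 7.85, 7.70, 7.51 and 7.80 on KO inhibitor arrays against 6.37 to 7.58 on WT inhibitor arrays, a difference of 0.76 ± 0.29 (limma, adjusted p = 0.287). Only WT inhibitor 15 reached into the KO range. The dimmer Fosl2 probe set differed by 0.09 ± 0.11 here, with all arrays kept. Fos read 8.52, 8.04, 7.28 and 7.82 in KO against 6.28 to 7.95 in WT, a difference of 0.91 ± 0.43 (limma, adjusted p = 0.403). Jun was lower, at 8.0 to 8.47 in KO and 8.30 to 8.84 in WT, by -0.35 ± 0.12 (limma, adjusted p = 0.230). Without the doubtful arrays these differences were 1.03 ± 0.27 for Fosl2, 1.32 ± 0.36 for Fos and -0.49 ± 0.12 for Jun (limma, adjusted p = 0.0327, 0.0346 and 0.0262), and 6.52% of all genes were called. In that fit the WT inhibitor group is arrays 10, 11 and 12, all of high vascular signal, while the KO inhibitor arrays had vascular means of 7.43 to 7.57. All 9 vascular markers measured were lower in KO than in WT inhibitor arrays with all arrays kept (median -0.32), and 0 of them passed. Of 9 glutamatergic markers 8 were higher there (median 0.87), and 0 passed. The part of either set in the Fos, Fosl2 and Jun differences was not tested. Junb differed by 0.26 ± 0.21 and Fosb and Jund by 0.07 each.

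In hippocampus, where vascular means spanned 7.28 to 7.73, no member passed for the genotype label either. With vehicle 0 of 6 members and 0% of all genes were called. There 0 members had an unadjusted limma p under 0.05, against 1205 of all 18193 genes. Under inhibitor 0 members were called, against 0.00550% of all genes. There 2 members (Fosl2 and Jund) had an unadjusted limma p under 0.05, against 2836 of all 18193 genes. Fosl2 under inhibitor read 8.51, 8.71, 8.53, 8.74 and 8.38 in KO, and 8.06 to 8.39 in WT with a median of 8.12. The groups met only where WT inhibitor 15 (8.39) edged past KO inhibitor 39 (8.38). The difference was 0.42 ± 0.11 (limma, unadjusted p = 0.000679, adjusted p = 0.168, rank 72 by p). With vehicle it was 0.20 ± 0.11 (limma, adjusted p = 0.771), and the groups overlapped. The dimmer probe set gave -0.12 ± 0.08 and 0.02 ± 0.08. Jund under inhibitor was lower by -0.15 ± 0.05 (limma, adjusted p = 0.232). The vehicle difference of Fosl2 was 0.83 ± 0.31 larger in striatum than in hippocampus (limma, adjusted p = 0.843), 0 members were called in that contrast, and 0.0495% of all genes were. At the dimmer Fosl2 probe set the same contrast was 0.04 ± 0.14. In the interaction of genotype and inhibitor in hippocampus 0 of 6 members and 0% of all genes were called. There 1 member (Fosb) had an unadjusted limma p under 0.05, against 2151 of all 18193 genes. The comparisons share control arrays, so the signs they have in common carry no separate weight.

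Other genes of the AP-1 pathway were taken from lists drawn up with earlier results of these data known. Beside their regional counts, 15.9% of all genes were called higher and 17.9% lower in WT vehicle striatum. Beside their unadjusted counts within a region, 257 to 2836 of all 18193 genes had an unadjusted limma p under 0.05, depending on the comparison. Of 15 genes for partners and relatives of AP-1, mostly of the ATF, BATF and Maf families, 0 passed in the 10 limma comparisons within a region, with an unadjusted p under 0.05 in 6 of 150 tests. In WT vehicle 3 were lower in striatum and 0 higher, against 33.9% of all genes called, namely Jdp2 (-0.74 ± 0.15), a repressor that pairs with Jun, Maf (-0.61 ± 0.12) and Atf4 (-0.30 ± 0.06). Their median regional difference was -0.01, against 0.03 for all genes. Of 19 kinases and factors upstream of the family, 0 passed within a region (unadjusted p under 0.05 in 16 of 190 limma tests), and between regions in WT vehicle 5 were higher and 5 lower in striatum, against 15.9% and 17.9% of all genes. Among them Camk4, the calcium/calmodulin kinase that phosphorylates CREB, was higher by 1.41 ± 0.09. Rps6ka5, which codes for the CREB and histone kinase MSK1, was higher by 1.68 ± 0.11, and Rps6ka3, for RSK2, by 0.91 ± 0.09. The list's median was -0.04.

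Of 18 neuronal genes linked to AP-1 or CREB in the literature, 4 were higher and 5 lower in WT vehicle striatum (all genes, 15.9% and 17.9%). The opioid peptide precursors Penk (4.57 ± 0.15) and Pdyn (2.10 ± 0.15) were among the higher, and the neurotrophin Bdnf (-3.43 ± 0.39) among the lower. Pdyn was also the only gene of these lists that passed within a region, being higher in KO vehicle than in WT vehicle striatum by 1.39 ± 0.19 (limma, adjusted p = 0.00451). Its KO effect with vehicle was 1.32 ± 0.22 larger in striatum than in hippocampus (limma, adjusted p = 0.0135). Of 29 other early response genes 0 passed within a region. They had an unadjusted p under 0.05 in 49 of 290 limma tests, against 257 to 2836 of all 18193 genes per comparison. In WT vehicle 9 were higher and 9 lower in striatum (all genes, 15.9% and 17.9%), among them Homer1 (0.87 ± 0.09), a postsynaptic scaffold, Nr4a3 (-2.73 ± 0.21), an orphan nuclear receptor, and Ptgs2 (-2.86 ± 0.23), the inducible cyclooxygenase. In striatum 10 of 29 had a positive inhibitor difference in WT (median -0.16), 22 of 29 a positive KO difference with vehicle (median 0.18) and 24 of 29 under inhibitor (median 0.23), with medians of all genes within 0.01 of 0. On the same arrays the vascular markers were positive for 9 of 9, 8 of 9 and 0 of 9, with medians of 0.40, 0.19 and -0.32, and the glutamatergic markers for 0 of 9, 6 of 9 and 8 of 9, with medians of -0.95, 0.13 and 0.87. Their part was not tested. Of the markers of astrocytes, microglia, oligodendrocytes, choroid plexus, hippocampal neurons, striatal projection neurons, glutamatergic neurons and vessels, 0 passed in any limma comparison within a region.

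Between arrays of the same group in striatum, Fos varied together with Junb and with Fosl2, while Junb and Fosl2 did not pass as a pair (r = 0.53, rho = 0.52, permutation, adjusted p = 0.196 and 0.182; 0.49 without the 2 arrays farthest in Fosl2, and -0.01 without the doubtful arrays). After group means were removed, the 15 pairs of members were correlated in each region, 30 in all, with 100000 permutations within groups. Striatal Fos and Junb had Pearson r = 0.76 and Spearman rho = 0.74 over 20 arrays (permutation, adjusted p = 0.0271 and 0.0155). Without the 2 arrays farthest from the median of Fos r was 0.61. Striatal Fos and Fosl2 had r = 0.74 and rho = 0.74 (permutation, adjusted p = 0.0320 and 0.0155), and 0.75 without the 2 farthest arrays. Without the doubtful arrays these r were 0.45 and 0.43 over 16 arrays (permutation, adjusted p = 0.504 and 0.511), and KO vehicle 25, low in all 3 genes, is among those removed. Jun had negative r with Fos (-0.29), Fosb (-0.37), Fosl2 (-0.39) and Junb (-0.50), with rho of -0.23, -0.33, -0.33 and -0.52, none past the threshold after adjustment. These r were 0.42, -0.34, 0.14 and -0.05 without the doubtful arrays, so the signs with Fos and Fosl2 turned.

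In hippocampus Fosb and Jund had r = 0.70 and rho = 0.74 over 22 arrays (permutation, adjusted p = 0.00120 and 0.00240). It was 0.72 without the 2 arrays of most extreme Fosb, and 0.67 without the doubtful arrays (permutation, adjusted p = 0.00330). With the mean of both Jund probe sets r was 0.19, so that relation holds for the brighter one. It also rests on the dim Fosb probe set, which read 4.41 to 5.12 on hippocampal arrays. Hippocampal Fos and Junb had r = 0.65 and rho = 0.43 (permutation, adjusted p = 0.0361 and 0.182). It was r = 0.40 without the 2 arrays farthest in Fos, so the Pearson value rests on those arrays. Without the doubtful arrays r was again 0.65, over 18 arrays, and did not pass (permutation, adjusted p = 0.189). Same-numbered arrays of both regions did not deviate together past the threshold for any of the 6 genes. The highest r, for Junb, was 0.47 (rho 0.50, permutation, adjusted p = 0.313 and 0.189 over 6 genes, 20 numbers), and it was 0.49 without the 2 farthest.

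**Figure D3:**
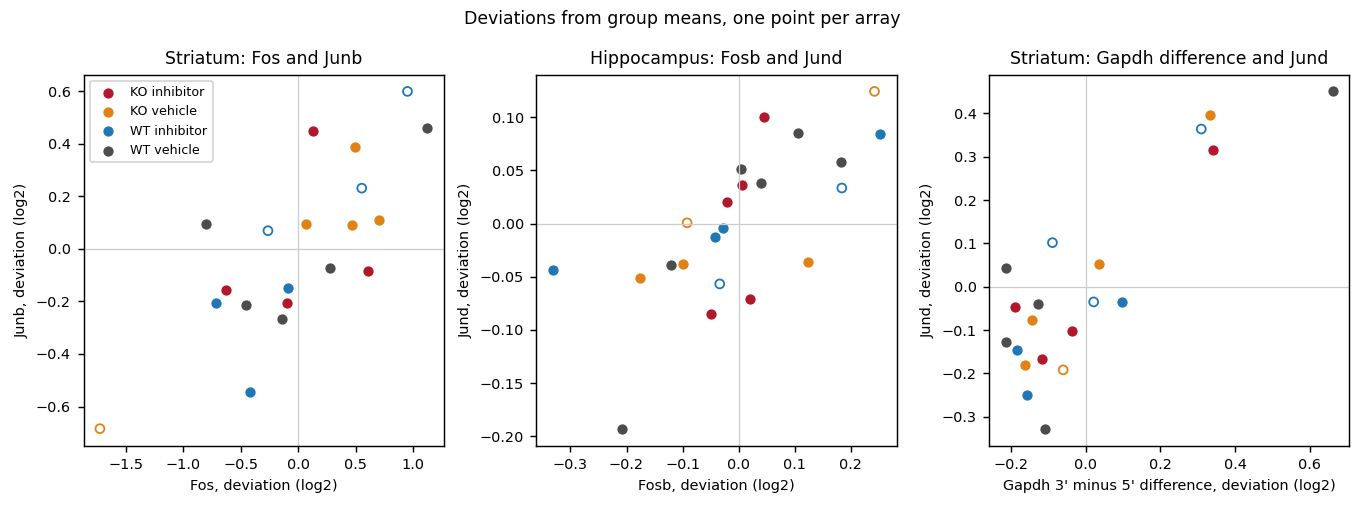
Deviations of single arrays from their group mean (log2, both axes): striatal Fos against Junb, hippocampal Fosb against Jund, and the striatal Gapdh 3′ minus 5′ difference against Jund. Points are arrays coloured by group, open where the chromosome 17 score is doubtful; KO vehicle 25 is the point at the lower left of the first panel, and the 4 arrays of largest Gapdh deviation in the third panel have the 4 highest Jund deviations.

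Jund in striatum went with a measure of RNA shortening. Its deviations had r = 0.85 and rho = 0.62 with those of the Gapdh 3′ minus 5′ difference over 20 arrays (permutation, adjusted p = 0.00912 and 0.105 over 24 relations of the members with this difference and with the glutamatergic marker mean). Without the 2 most extreme arrays r was 0.77, and without the doubtful arrays 0.87. Of all genes, 99.6% had a lower r with the Gapdh difference there. The array with the highest Gapdh difference in each striatal group was also the one with the highest Jund: WT vehicle 4 at 11.16, WT inhibitor 13 at 11.06, KO vehicle 29 at 11.11 and KO inhibitor 35 at 11.09. In hippocampus, where the difference varied less, r was 0.19 (rho 0.27, permutation, adjusted p = 0.758 and 0.529; 0.36 without the 2 most extreme arrays). None of the other 23 relations passed, of which hippocampal Fosb with the glutamatergic mean came closest (r = 0.58, rho = 0.59, permutation, adjusted p = 0.101 and 0.105; 0.47 without the 2 farthest). The r of striatal Jun with the glutamatergic mean was 0.49 over all arrays and 0.79 over the 16 without the doubtful ones, and that of striatal Jund -0.28 and -0.59, with no test run on the smaller set.

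The genes whose array-to-array pattern was most like the mean of Fos, Fosb and Junb in striatum were Egr1 (r = 0.89 over 20 arrays), Dusp1 (0.88), Nr4a1 (0.88), Arc (0.87) and Egr2 (0.84). These are a zinc finger factor, a MAP kinase phosphatase, an orphan nuclear receptor, a synaptic cytoskeletal protein and another zinc finger factor, all known early response genes. Without the doubtful arrays the r were 0.74, 0.69, 0.88, 0.70 and 0.61 over 16 arrays. Striatal Fosb, part of that mean, had r = 0.19 with Fos and 0.16 with Junb (permutation, adjusted p = 0.638 and 0.666). The likeness therefore need not hold for Fosb alone. In hippocampus the 5 were Pdrg1 (0.91 over 22 arrays), Dusp1 (0.87), Prag1 (0.84), Frmd6 (0.84) and Mtcl1 (0.83). Most like Jund in striatum were Crebbp (0.92), the CREB-binding coactivator, Arid1b (0.90), Tnrc6b (0.90), Mtdh (0.89) and Gnai2 (0.89), and these 5 had r of 0.83 to 0.91 with the Gapdh difference. In hippocampus Nacc2 (0.85), Zc3h7b (0.81), Lbh (0.78), Rprd2 (0.74) and Kndc1 (0.73) were most like it. All were chosen for these r, so the values describe them and have no test.

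**Figure D4:**
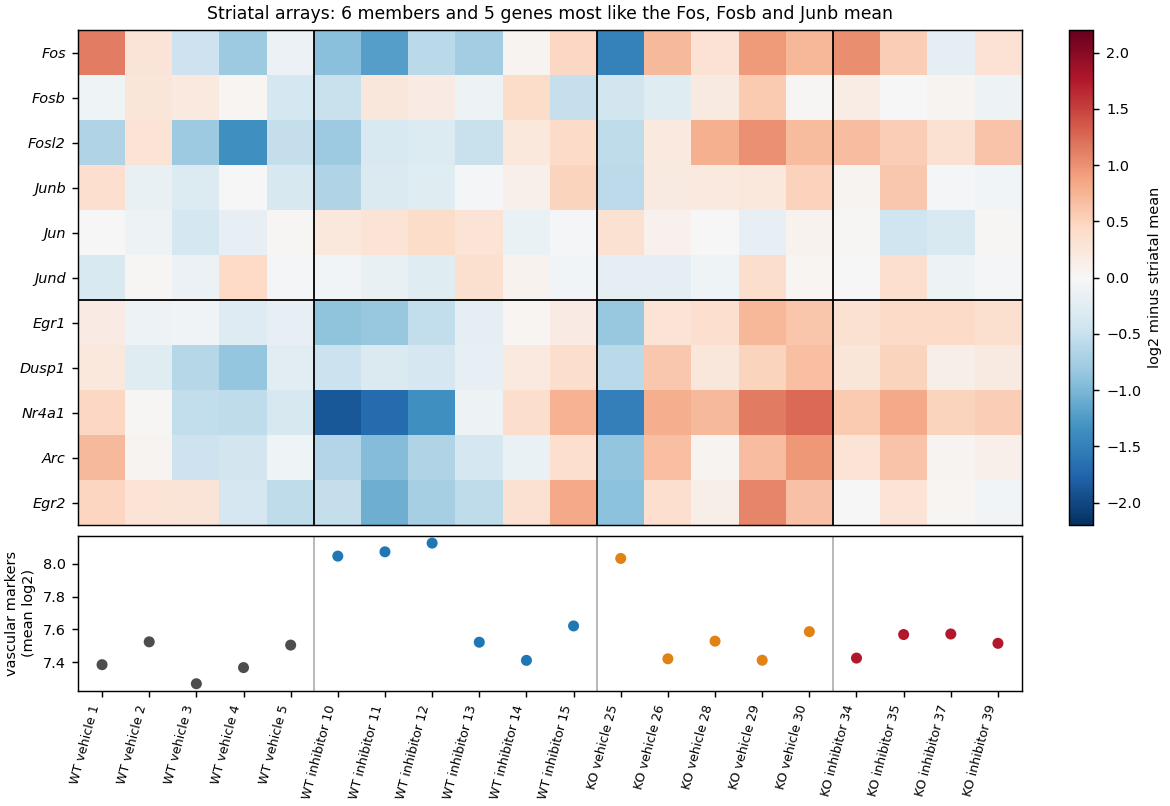
The 20 striatal arrays (columns, by group and title number), with the log2 level less its mean over striatal arrays (colour) for the 6 members above the line and 5 genes of like pattern below it, and the mean log2 level of 9 vascular markers in the lower panel. WT inhibitor 10, 11 and 12 and KO vehicle 25, with vascular means of 8.03 to 8.13, are blue for Fos, Junb, Egr1, Nr4a1 and Arc and red for Jun.

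Set out by array, the 4 striatal arrays of high vascular signal had the lowest values of some early genes and not of others, a split made after the values were seen and given without a test. Fos was 6.02 to 6.91 on these 4 and 6.70 to 8.63 on the other 16. Junb was 7.03 to 7.43 against 7.34 to 8.28, and Fosl2 6.37 to 6.86 against 5.82 to 8.18, so these ranges met. Jun was at the upper end, at 8.67 to 8.84 against 8.0 to 8.73. Egr1 was 10.87 to 11.21 against 11.46 to 12.48, Nr4a1 7.74 to 8.27 against 9.05 to 10.86 and Arc 7.85 to 8.16 against 8.34 to 9.76. For these 3 genes the ranges did not overlap. They were chosen for their likeness to the mean of Fos, Fosb and Junb, so low values where Fos is low follow in part from that choice. How many of all genes have ranges apart on this split was not counted. Egr2 overlapped slightly (4.53 to 5.08 against 5.05 to 6.68), and Dusp1 lay inside the range of the others (8.49 to 8.77 against 8.23 to 9.74). Fosb (4.84 to 5.57 against 4.81 to 5.89) and Jund (10.45 to 10.67 against 10.38 to 11.16) lay inside the range of the others. Whether the vascular signal has a part in these values was not tested.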

How the data were processed

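Each sample is 1 Affymetrix array of total RNA labelled as biotinylated cRNA. The table the authors deposited holds log2 values of 45101 probe sets. Per the submitters' processing notes they come from RMA, which corrects background, normalises quantiles across arrays and summarises probes. Differences in total RNA are thereby removed. Arrays have no read depth, and their number limits the precision. The table holds no detection calls.

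Names of probe sets come from GEO's annotation of the platform. After removal of 64 control probe sets, 34945 had 1 gene, 932 several and 9160 none listed. Of the 34945, 34741 matched the RefSeq gene table of GRCm38.p6. Each of 18193 genes was represented by its probe set of highest mean over 42 arrays. Of 168 entries in 12 lists, 153 matched.

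Differences were fitted by limma (version 3.58.1, R version 4.3.3; two-sided moderated test, Benjamini-Hochberg over all genes, threshold 0.05), with 4 groups of a region in a fit, or all 8 for comparisons between regions. Errors on differences are SE, and folds are 2 to the power of the difference. The fits were tested on simulated data. Correlations used deviations from group means, with permutations within groups.

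The members and lists were chosen with earlier results of these data known. Genes named are the members, the 5 genes most like the mean of Fos, Fosb and Junb, and most like Jund, in each region, and up to 3 called members of each list per comparison. The chromosome 17 score uses 15 genes per region and a limit of 0.5, and with the Gapdh alternatives was added after seeing the data. Alternatives were other probe set choices, array weights, other groups in the fit, a filter on low levels, eBayes with trend, median centring, marker and Gapdh covariates, a replicate block and leaving out arrays.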

Additional observations from a re-analysis of the deposited data

Results flagged for a closer look

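Each of the 6 genes in each of the 8 groups, 48 sets of 4 to 6 arrays, was tested for a single array far from the rest. Of these sets 3 had one, near the share of about 1 in 20 that chance gives. In striatal KO vehicle, array 25 had the lowest Fos level, 6.02 (the 4 others 7.81 to 8.44), and the lowest Junb level, 7.12 (7.90 to 8.19). Fos and Junb varied together between striatal arrays with all arrays kept, so these flags are not separate. The same array had a chromosome 17 score near that of WT arrays and a high vascular marker mean, and the part of either was not tested. In hippocampal WT inhibitor, array 15 had the highest Fosl2 level, 8.39 (the 5 others 8.06 to 8.16).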

How the results depend on the processing

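The counts of members called kept within 1.5 times their value under the alternatives run, except without the arrays of doubtful chromosome 17 score, where they became 1 (Jun) for the inhibitor in WT striatum, 1 (Fosl2) for KO with vehicle and 3 (Fos, Fosl2 and Jun) for KO under inhibitor, in place of 0. Leaving out 1 array at a time gave 0 to 1 members for KO with vehicle in striatum, the 1 without KO vehicle 25. No called difference changed sign. The count of member pairs correlated past the threshold went from 2 to 0 in striatum and from 2 to 1 in hippocampus without the doubtful arrays, and to 1 in hippocampus when the probe sets of a gene were averaged. With that average, Jund in WT vehicle was 0.20 ± 0.07 higher in striatum (limma, adjusted p = 0.0329), and with the Gapdh difference as a covariate 0.19 ± 0.07 in KO vehicle (adjusted p = 0.0457). Without the 4 striatal arrays of highest Gapdh difference, Junb in KO vehicle was 0.45 ± 0.18 (limma, adjusted p = 0.0654).

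With the title number as a replicate block, the regional comparisons called 3, 3, 4 and 4 members (vehicle then inhibitor, in WT and then in KO), as without it, and the regional contrasts of the inhibitor and KO effects 0. Over 20 numbers present in both regions, same-numbered arrays had r between -0.38 and 0.30, 5 of them above 0.1, and 2 arrays correlated best with their own number, so the block was not taken as a pairing. Whether equal numbers mark the same animal is not given in the labels. Groups within a region share no numbers.

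Over all genes the count called varied far more: 4 to 73 for the inhibitor in WT striatum when 1 array was left out, and 12 to 769 under the other alternatives. For KO with vehicle in striatum it ran from 8 to 82 and from 0 to 145, and for KO under inhibitor from 0 to 187 and from 0 to 1187. In hippocampus, array weights gave 154 genes for the inhibitor in WT and 658 for KO under inhibitor. Groups of 4 to 6 arrays, bulk tissue and a dim Fosb probe set limit what can be seen, and a p above the threshold does not show that values were equal.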
